A study of Mus musculus with 9 samples.

Results

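Kcne1, Kcne2, Kcne3, Kcne4, Kcnq1 and Kcnh2 are the genes of the cardiac delayed rectifier potassium channels and their small partner subunits. Every probe set that the array's annotation assigns to one of these 6 genes was taken, which gave 7 of the 45037 probe sets other than controls: 2 for Kcne1 and 1 for each of the others. They were measured in cardiac ventricles of male mouse fetuses at E18.5, the end of gestation. The fetuses were homozygous (ERRg -/-, here KO) or heterozygous (ERRg +/-, HET) for the loss of Esrrg, or wild type (ERRg +/+, WT), with 3 Affymetrix arrays per genotype. Esrrg encodes estrogen-related receptor gamma, an orphan nuclear receptor known for its part in mitochondrial energy metabolism of heart muscle. The labels give neither the strain nor how the allele was made. They call the arrays of a genotype biological replicates, and also name 3 ventricles beside each genotype, which does not settle whether an array held 1 sample or a pool.

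Delayed rectifier currents help to end the cardiac action potential. Kcnq1 encodes the pore-forming subunit of the slow delayed rectifier and Kcnh2 that of the rapid one. The Kcne genes encode single-pass membrane proteins that bind such pores and change how they open and how many reach the surface. Kcne1 (minK) joins the Kcnq1 protein to form the slow current, and Kcne2, Kcne3 and Kcne4 are its relatives. Variants of KCNQ1, KCNH2 and KCNE1 are known causes of long QT syndrome in humans.

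The signals are MAS5 intensities on a linear scale, scaled per array by the authors. The number of arrays limits the precision, and array medians lay between 36.6 and 45.9. The targeted gene followed the labels in its brightest probe set: of 3 Esrrg probe sets, that one gave 39.3 to 58.3 in KO, 162 to 164 in HET and 206 to 281 in WT. The other Esrrg probe sets were dimmer, at 10.2 to 79.8 and 17.5 to 56.7, and KO and WT arrays overlapped in each. Heart muscle markers were bright, as the label asks, with mean Tnnt2 (cardiac troponin T) signals of 23330 in KO, 23443 in HET and 24213 in WT ventricles. A ratio of 2 bacterial spike-in controls, thr to dap, cut at its widest gap, divides the arrays into a set of 5 (the 3 KO arrays and HET replicates 2 and 3) and a set of 4 (HET replicate 1 and the 3 WT arrays). The log2 ratio ran from -1.35 to -1.21 in the set of 5 and from -1.03 to -0.82 in the set of 4. Such a cut divides any arrays, and whether these sets are separate batches was not tested. KO and WT arrays thus never share a spike-in set, and values that take the set into account rest on HET replicate 1 alone to join them.

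Kcne1 was the one member called lower in KO than in WT ventricles (limma, adjusted p under 0.05). Of the 5 members tested, 4 had a negative difference. Its brighter probe set, 1420672_at, read 1621, 1234 and 1675 on the KO arrays, 2005, 2026 and 2121 on the HET arrays, and 2145, 2438 and 2151 on the WT arrays. Every KO array lay under every HET and WT array, and the HET arrays lay just under the WT arrays. The mean signal was 1510 ± 241 in KO, 2050 ± 61.8 in HET and 2245 ± 168 in WT (SD, n = 3 each), so the KO mean was 67.3% and the HET mean 91.3% of the WT mean.

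On the log2(signal + 16) scale, Kcne1 differed between KO and WT by -0.58 ± 0.10 (SE; 95% interval -0.80 to -0.36; limma, adjusted p = 0.0255). It was 1 of 5 member genes tested that was called at an adjusted p under 0.05, and none was called higher. Over all 13028 genes, 1.62% were called in either direction and 0.883% were called lower. Kcne1 and Kcnh2 were the members whose KO arrays all lay under the WT arrays, as in 13.9% of all genes. The call was lost without KO replicate 1 (-0.63, limma, adjusted p = 0.0522) or 2 (-0.44, 0.0878), and without WT replicate 2 (-0.52, 0.0889) or 3 (-0.61, 0.0898). It was also lost with the spike-in set as a block, where the difference was -0.63 ± 0.18 (limma, adjusted p = 0.608).

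The second Kcne1 probe set, 1441035_at, gave the same picture at its own, dimmer scale. It read 438, 326 and 396 in KO, 565, 568 and 504 in HET, and 596, 539 and 605 in WT ventricles. Again the KO arrays lay under all others, while HET and WT overlapped. KO replicate 2 was the lowest array in both probe sets. The KO minus WT difference was -0.57 ± 0.12, just outside the threshold when every probe set is tested (limma, adjusted p = 0.0504 over 45037 probe sets, of which 0.298% were called). In that same fit the brighter probe set had an adjusted p of 0.0363. Across the 9 arrays the log2 signals of the probe sets correlated with r = 0.90, given as a description, since both are read from the same RNA samples.

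**Figure D1:**
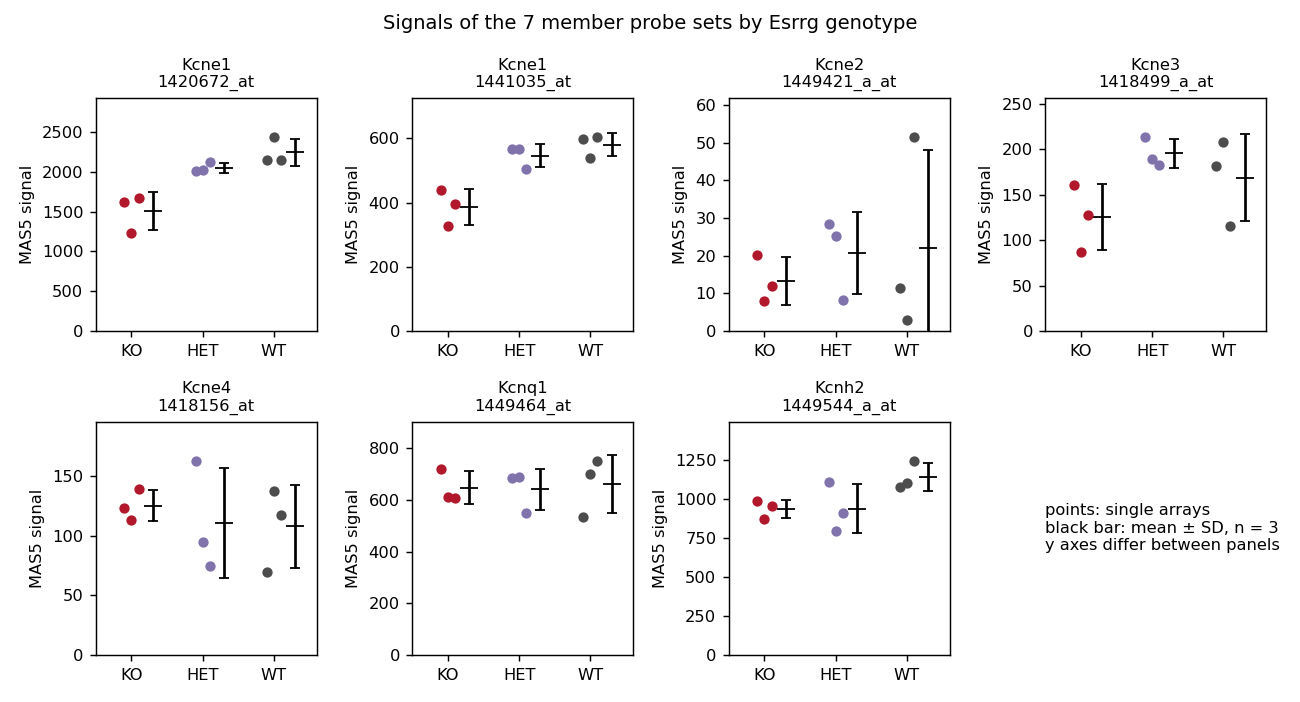
MAS5 signal (linear intensity, y axis, from 0 in each panel) of the 7 probe sets in KO, HET and WT ventricles, with 1 point per array and the mean ± SD of 3 arrays in black (the WT bar of Kcne2 runs below 0 and is drawn to the axis). Both Kcne1 panels show the KO arrays below all HET and WT arrays (1234 to 1675 against 2005 to 2438 for the brighter probe set), and in the Kcnq1 panel the genotypes overlap.

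In heterozygous ventricles Kcne1 was not called. The HET minus WT difference was -0.13 ± 0.10 (95% interval -0.35 to 0.09; limma, adjusted p = 0.673), and the KO minus HET difference was -0.45 ± 0.10 (-0.67 to -0.23; adjusted p = 0.792, unadjusted p = 0.000547). The HET level lay 0.16 ± 0.09 above the midpoint of KO and WT (95% interval -0.03 to 0.35; limma, adjusted p = 0.983), so these arrays do not tell the HET level from one midway between them. The HET minus WT difference was -0.07 without WT replicate 2, and the distance from the midpoint was 0.09 without KO replicate 2. By array values KO stood apart from both other genotypes. None of 5 members was called between HET and WT by limma, nor against the midpoint, and none between KO and HET. Over all genes those shares were 0.0%, 0.0% and 0.0154%.

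The Kcne1 values were also read within the spike-in sets. Among the HET arrays, those of the second set differed from replicate 1 by 0.05 on the log2 scale. Within the second set alone, the KO arrays were lower than HET replicates 2 and 3 by a log2 difference of -0.47. Within the first set, HET replicate 1 differed from the WT mean by -0.16. Over all arrays the KO minus HET difference was -0.45 (limma, adjusted p = 0.792), and with the set as a block it was -0.47 (adjusted p = 0.902). For the dimmer Kcne1 probe set it was -0.46 within the second set. The differences within the second set rest on the KO arrays and HET replicates 2 and 3, and HET replicate 1 alone stands for its genotype in the first.

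Kcnq1, the pore partner of Kcne1 in the slow delayed rectifier, was not called and its genotypes overlapped. Its probe set read 721, 611 and 608 in KO, 684, 689 and 550 in HET, and 535, 699 and 752 in WT ventricles. The ranges of all genotypes overlap, and WT arrays are both the lowest and the highest of the 9. The KO mean was 97.7% and the HET mean 96.8% of WT. The KO minus WT difference was -0.02 ± 0.13 (95% interval -0.31 to 0.26; limma, adjusted p = 0.956), and HET minus WT was -0.04 ± 0.13 (-0.32 to 0.25; adjusted p = 0.937). The KO minus WT interval does not reach the Kcne1 difference of -0.58, which leaves out the error of Kcne1 and is no test between the genes. With the spike-in set as a block the limma 95% intervals overlapped, at -0.37 to 0.62 for Kcnq1 and -1.01 to -0.24 for Kcne1.

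The change of the subunit relative to its pore gene was compared within each array. The log2 signal of Kcne1 minus that of Kcnq1 was 1.15, 0.99 and 1.44 in KO, 1.53, 1.53 and 1.92 in HET, and 1.97, 1.78 and 1.5 in WT ventricles. These are differences between probe sets and say nothing of which RNA is more abundant. All KO arrays lay under all HET and WT arrays. The KO minus WT difference was -0.55 (p = 0.1 by an exact permutation test, two-sided, which is the smallest p that 3 arrays against 3 can give), and KO minus HET was -0.47 (p = 0.1 in the same exact test). HET minus WT was -0.09 (exact permutation p = 0.7). Set against Kcnh2 in the same way, Kcne1 gave a KO minus WT difference of -0.30, with overlapping arrays (exact permutation p = 0.2), and a KO minus HET difference of -0.46, without overlap (exact permutation p = 0.1).

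Kcnh2, which encodes the rapid delayed rectifier pore (ERG1), was lower in both KO and HET ventricles than in WT, without passing the test. Its signals were 987, 872 and 953 in KO, 1108, 798 and 909 in HET, and 1076, 1102 and 1248 in WT. The KO arrays lay under all WT arrays, while HET replicate 1 lay among the WT arrays and HET replicates 2 and 3 among or under the KO arrays. The mean was 937 ± 59.4 in KO, 938 ± 157 in HET and 1142 ± 92.5 in WT (SD, n = 3 each). KO minus WT was -0.28 ± 0.11 (limma, adjusted p = 0.214) and HET minus WT was -0.29 ± 0.11 (adjusted p = 0.371), and KO minus HET was 0.01 ± 0.11 (adjusted p = 0.994).

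The Kcnh2 arrays divide without overlap by spike-in set. The 5 arrays of the second set read 798 to 987 and the 4 arrays of the first set 1076 to 1248, with no overlap. Among all genes, 7.67% were lower on every array of the second set in this way. HET replicates 2 and 3 differed from HET replicate 1, the same genotype, by -0.37. With the set as a block, KO minus WT was 0.09 ± 0.16 (limma, adjusted p = 0.958) and HET minus WT was -0.04 ± 0.13. Without HET replicate 1, by contrast, the HET minus WT difference of -0.41 was called (limma, adjusted p = 0.0341), in a fit that called 574 of 13028 genes. There every HET array is of the second set and every WT array of the first. Genotype and spike-in set cannot be told apart in that fit, nor for the KO and WT arrays.

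**Figure D2:**
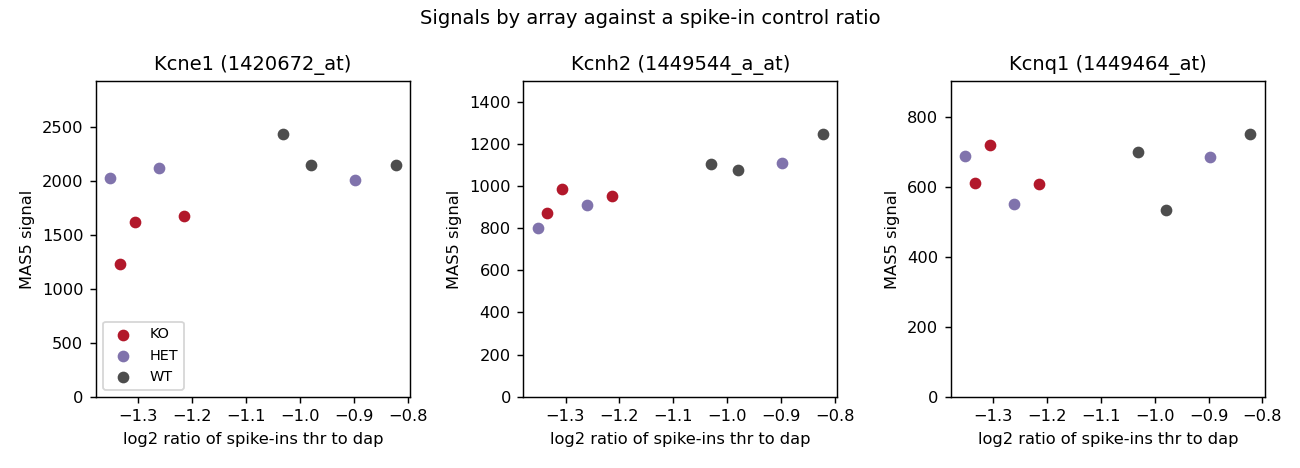
MAS5 signal (y axis, from 0) of Kcne1, Kcnh2 and Kcnq1 on each of the 9 arrays against the log2 ratio of the spike-in controls thr and dap (x axis), with KO arrays red, HET purple and WT grey. Kcnh2 is lower on all 5 arrays of the left group (798 to 987) than on the 4 of the right group. The HET arrays have Kcne1 signals of 2005 to 2121, with HET replicate 1 the only HET array of the right group.

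Kcne3 (MiRP2), a subunit known to hold Kcnq1 channels open in epithelia, was low on the KO arrays but varied widely. It read 160, 87.4 and 128 in KO, 213, 189 and 183 in HET, and 182, 208 and 115 in WT ventricles. The KO arrays lay under all HET arrays, and the WT arrays spanned most of both ranges. KO minus HET was -0.61 ± 0.22 (95% interval -1.08 to -0.15; limma, unadjusted p = 0.0134, adjusted p = 0.989), and KO minus WT was -0.38 ± 0.22 (-0.85 to 0.08; adjusted p = 0.399). HET minus WT was 0.23 ± 0.22, and HET stood 0.42 ± 0.19 above the midpoint of KO and WT (limma, adjusted p = 0.983). These sizes rest on single arrays: KO minus WT was -0.18 without KO replicate 2, -0.22 without WT replicate 2, -0.61 without WT replicate 3 and -0.20 with the spike-in set as a block. HET minus WT was 0.39 without WT replicate 2, 0.0019 without WT replicate 3 and 0.35 with the block, and KO minus HET was -0.40 without KO replicate 2.

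Kcne4 (MiRP3), which is known to inhibit Kcnq1 channels in expression systems, showed no ordered difference. It read 124, 114 and 139 in KO, 163, 94.8 and 74.9 in HET, and 69.6, 137 and 118 in WT ventricles. All KO arrays lie inside the range of the HET arrays, and HET and WT cover nearly the same span. KO minus WT was 0.23 ± 0.26 (95% interval -0.33 to 0.78; limma, adjusted p = 0.713). With the spike-in set as a block it was 1.06 ± 0.40 (adjusted p = 0.767). HET replicate 1, the single array that then joins the sets, was the brightest of the 9.

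Kcne2 (MiRP1), a partner of both Kcnh2 and Kcnq1 proteins that is known for its part in stomach and choroid plexus, was dim in every genotype. Its probe set read 20.3, 7.88 and 12 in KO, 28.5, 25.3 and 8.26 in HET, and 11.3, 2.96 and 51.5 in WT ventricles. Its mean log2 level fell under the limit of 5.24 (a signal of 21.7) used to leave out dim genes, and the lowest and the highest of the 9 arrays are both WT. In the fit of every probe set without that limit, KO minus WT was -0.18 ± 0.45 (limma, adjusted p = 0.935).

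**Figure D3:**
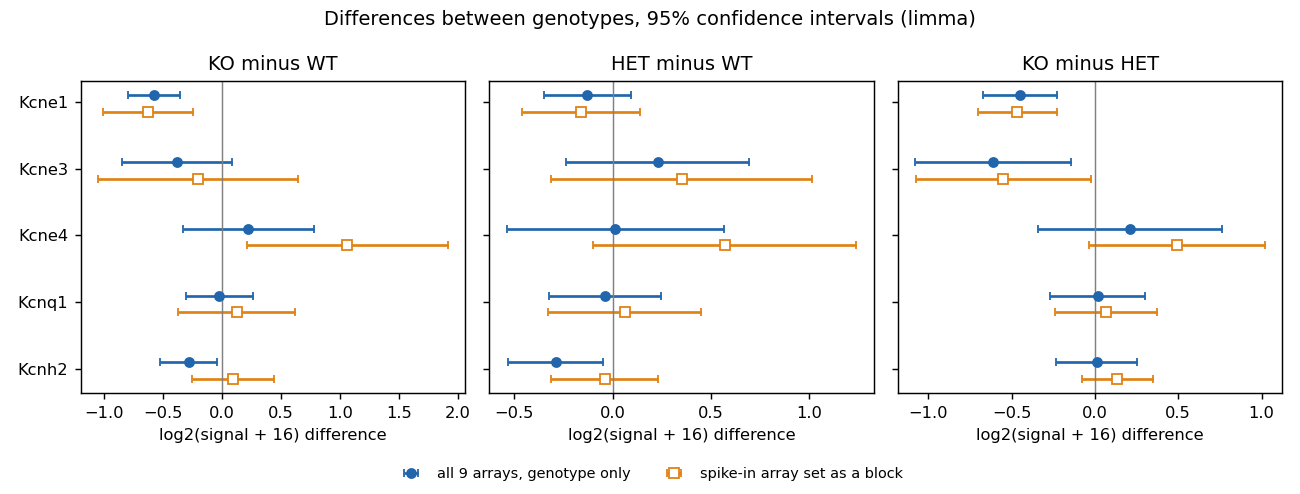
Differences between genotypes on the log2(signal + 16) scale (x axis) for the 5 member genes above the dim limit, with limma 95% confidence intervals. Filled circles are from the fit with genotype alone and open squares from the fit with the spike-in set as a block. For KO minus WT, Kcne1 is at -0.58 without the block (called) and at -0.63 with it (not called, adjusted p = 0.608), and Kcnh2 is at -0.28 without the block and at 0.09 with it.

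By unadjusted p under 0.05, the members reached were Kcne1 and Kcnh2 for KO minus WT (2 of 5, against 17.2% of all genes), Kcnh2 for HET minus WT (1 of 5, against 11.5%), and Kcne1 and Kcne3 for KO minus HET (2 of 5, against 4.81%). Arrays did not overlap, with the first genotype lower, for Kcne1 in HET against WT (7.41% of all genes) and for Kcne1 and Kcne3 in KO against HET (5.73%). The median KO minus WT difference over the 5 members was that of Kcnh2, -0.28, beside -0.01 over all genes, and it was 0.09, again that of Kcnh2, with the spike-in set as a block. The comparisons share arrays, so these counts are not independent of one another.

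The wider channel family gave no call. Of 22 other voltage-gated potassium channel genes and accessory subunits known as Kcne partners or close relatives, 17 had a probe set and 8 passed the dim limit. None of the 8 was called in KO against WT, and 6 were lower. The median difference was -0.10, which turned to 0.14 with the spike-in set as a block. Over all 13028 genes 51.6% were lower and 1.62% were called, shares that apply to the lists below as well. The lowest p-values were those of Kcnip2, the accessory subunit of the transient outward channel (-0.24 ± 0.19; limma, adjusted p = 0.564; -0.01 with the block), Kcna5, the pore of an ultrarapid delayed rectifier (0.14 ± 0.15, 0.707; 0.63 ± 0.23 with the block), and Kcnd2, a transient outward pore (-0.20 ± 0.25, 0.739; 0.30 with the block). Kcnq5, the other Kcnq gene tested, gave -0.07 ± 0.31 (-0.68 ± 0.54 with the block), and Kcnq3 was under the dim limit.

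Genes for the proteins that anchor, modify or traffic these channels were not called either. Of 22 such genes, 18 were tested, with 10 lower in KO than in WT, none called, and a median of -0.09. Nearest to the threshold were Stub1, a chaperone-linked ubiquitin ligase (-0.41 ± 0.11; limma, adjusted p = 0.0696; -0.08 with the spike-in set as a block), Prkar2a, a regulatory subunit of protein kinase A (-0.35 ± 0.10, 0.078; -0.14 with the block), and the chaperone Hspa8 (0.23 ± 0.07, 0.0981; 0.06 with the block). Akap9, whose product yotiao ties protein kinase A to the Kcnq1 and Kcne1 complex, gave 0.08 ± 0.20 (adjusted p = 0.889; 0.46 with the block).

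Kcne1 and Kcne2 lie near each other on mouse chromosome 16 (RefSeq gene order, GRCm38.p6), with Smim11 between them and Rcan1 next to Kcne1. Of 24 genes in a hand-made list of neighbours of the members, 16 were tested and 10 were lower in KO than in WT. None was called, and the median was -0.05 (0.01 with the spike-in set as a block). Over all genes 51.6% were lower and 1.62% were called. Of the 10 genes nearest to Kcne1, 7 were tested, 5 were lower and none was called. Among them the calcineurin regulator Rcan1 gave -0.28 ± 0.10 (limma, adjusted p = 0.153), Smim11 -0.22 ± 0.08 (0.170) and the mitochondrial ribosomal gene Mrps6 -0.24 ± 0.09 (0.161). Clic6 gave -0.91 ± 0.45 (0.318) and Runx1 0.30 ± 0.23 (0.562). With the block Rcan1, Smim11 and Mrps6 were at -0.06, -0.14 and -0.11, and Clic6 and Runx1 each at 0.54, beside -0.63 for Kcne1. Among the 10 genes nearest to Kcnh2 in the RefSeq order on chromosome 5, 9 were tested, 5 were lower and 1 was called. This was Tomm7, a mitochondrial import gene that is not in the hand-made list, which fell (-0.48 ± 0.10; limma, adjusted p = 0.0317; -0.12 with the block). Klhl7 was higher without being called (0.51 ± 0.16; adjusted p = 0.113; 0.20 with the block). Of the genes nearest to the other members, 7 of 8 tested were lower for Kcne2, with Kcne1 itself the 1 called. For Kcnq1 5 of 5 were lower, for Kcne3 1 of 8 and for Kcne4 1 of 5, with none called.

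Kcnq1ot1 is a long noncoding RNA transcribed antisense from within Kcnq1, known for imprinting that region of chromosome 7. Of its 6 probe sets, 3 passed the dim limit, and the brightest gave 56.5, 83.4 and 72.5 in KO, 53.0, 33.2 and 43.8 in HET, and 48.9, 49.8 and 37.5 in WT ventricles. The KO arrays lay above all others in that probe set and overlapped the others in the next brightest. The share of all genes with KO arrays above all others was not computed. The KO minus WT difference of 0.49 ± 0.27 was not called (limma, adjusted p = 0.369; 0.84 ± 0.48 with the spike-in set as a block). The imprinted neighbour Cdkn1c, a cell cycle inhibitor, gave -0.14 ± 0.10 (adjusted p = 0.514), and the tetraspanin gene Cd81 -0.27 ± 0.07 (0.078; -0.05 with the block).

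**Figure D4:**
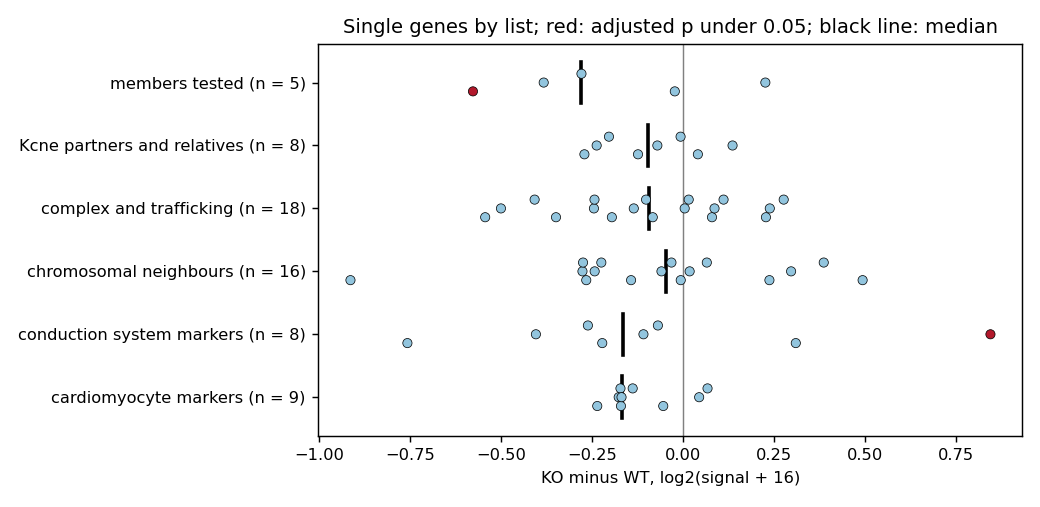
KO minus WT differences on the log2(signal + 16) scale (x axis) of the genes tested in each list, with 1 point per gene, a black line at the list's median and called genes in red. Kcne1 at -0.58 is the one member called, and no gene of the channel partner, trafficking or neighbour lists is called. Tomm7, called among the genes nearest to Kcnh2, is not in the neighbour list.

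Cell type markers were read beside these values. In bulk RNA, fewer cells of a type and less RNA per cell cannot be told apart. All 9 cardiomyocyte markers were tested, 7 were lower in KO than in WT with a median of -0.17, and none was called. By unadjusted p under 0.05 (limma), 6 of the 9 were reached, against 17.2% of all genes. Their summed signal was 165018 to 181812 in KO, 166678 to 188469 in HET and 184798 to 198210 in WT ventricles. KO and WT did not overlap, HET overlapped both, and how often such sums part was not computed. The lowest difference among them was that of Tnni3, cardiac troponin I (-0.24 ± 0.08; limma, adjusted p = 0.143). With the spike-in set as a block their median was 0.01, Tnni3 turned to 0.09, and the lowest was Myh7, a myosin heavy chain gene, at -0.19. Kcne1 is also known from the conduction system in mouse. Of 14 conduction system markers 8 were tested, 6 were lower with a median of -0.17 (-0.02 with the block), and 1 was called, Tbx18, a transcription factor of the sinus horn and epicardium, which rose by 0.84 ± 0.17 (limma, adjusted p = 0.032; 0.23 with the block). Gja5, the connexin of ventricular conduction fibres, gave -0.76 ± 0.26 (adjusted p = 0.138; -0.28 with the block), and Irx3 -0.40 ± 0.12 (0.0991; -0.57 with the block). The summed conduction markers were 1755 to 1944 in KO, 1764 to 1897 in HET and 1679 to 1800 in WT. This sum is over the 10 markers on the arrays, those under the dim limit included, and the brightest weigh most. Tbx18 (mean 417 in KO, 225 in WT) and Id2 (622 in KO, 497 in WT) were higher in KO, against 6 of the 8 tested lower. The sum is therefore no measure of conduction cells. The part of these cells in the Kcne1 values was not tested.

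Markers of other cell types were mostly not called. Endothelial markers had 1 called of 6, Kdr, a vascular growth factor receptor, which fell (-0.74 ± 0.14; limma, adjusted p = 0.0262; -0.25 with the block), and their median was -0.03. Atrial markers had 1 called of 6, Nppa, the atrial natriuretic peptide gene, which rose by 0.24 ± 0.06 (limma, adjusted p = 0.0459; 0.34 with the block), and their median was 0.03. None was called among 6 fibroblast (median 0.10), 7 smooth muscle and pericyte (0.24), 5 epicardial (0.08), 3 neural and glial (0.24) and 4 blood markers (0.01). With the spike-in set as a block the medians were 0.16 for endothelial, 0.25 for atrial, 0.22 for fibroblast, 0.21 for smooth muscle and pericyte, 0.08 for epicardial, 0.38 for neural and glial and 0.43 for blood markers. The summed neural and glial signal was 564 to 587 in KO, 554 to 568 in HET and 425 to 479 in WT. This sum is over the 4 markers on the arrays, Tubb3 under the dim limit among them. Both KO and HET lay above WT without overlap, and the 3 tested markers were higher in HET than in WT too (median 0.35). How often such sums part was not computed, and the part of these cells in the member values was not tested.

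The genes whose log2 signals over the 9 arrays were most like those of Kcne1 were Zfp385a (Pearson r = 0.95), Cenpv (0.94), Nnt (0.94), Clybl (0.94) and Ptgds (0.93). Of these, Cenpv (-0.59 ± 0.13; limma, adjusted p = 0.0339), the mitochondrial transhydrogenase gene Nnt (-0.29 ± 0.07, 0.0482) and the mitochondrial enzyme gene Clybl (-0.41 ± 0.10, 0.0482) fell in KO against WT. Genes picked for their likeness to Kcne1, which was lowest on the KO arrays, tend to be lower there by that choice, so these falls are no separate evidence. In all, 14 genes had an r over 0.9 with Kcne1, against 97 with Kcnh2, 9 each with Kcne3 and Kcne4, and 2 with Kcnq1. Nearest to Kcnh2 were Bckdha (0.97) and Tmem223 (0.97), to Kcne3 Mafk (0.96) and Pgap2 (0.96), to Kcne4 Mmd2 (0.96) and Tub (0.94), and to Kcnq1 Trir (0.95) and Bcl2l2 (0.91). Among the members themselves r was 0.74 between Kcne1 and Kcne3, 0.66 between Kcne4 and Kcnq1, and 0.10 between Kcne1 and Kcnq1. These are descriptions over arrays that share genotype and spike-in set.

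ERR receptors are known to bind a motif written here as TNAAGGTCA. RefSeq promoter windows (GRCm38.p6, short stretches around each gene's start) were at hand for Kcne2, Kcne3, Kcne4 and Kcnh2. Neither that motif nor its core AAGGTCA, which lies within it, was found on either strand of their 6 windows, and of all 32851 windows 1.28% hold the first and 4.72% the second. Kcne1 and Kcnq1 were not analysed here in this respect.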

How the data were processed

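The 9 arrays of male fetal ventricles were read from the deposited table of MAS5 signals, an intensity per probe set on a linear scale. The name MAS5 is from the submitters' processing notes, and no version is given there. The mean of each deposited column without its top and bottom 2% was 200, so the authors' values share one scale. Symbols are those of the platform annotation, updated by gene ID through a RefSeq table (GRCm38.p6). The labels' biological replicates were taken as separate samples, and p-values measure the spread between them.

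From these signals log2(signal + 16) was computed, which understates changes of dim genes. Each gene was read from its brightest probe set, and genes under the 40th percentile of probe sets were left out, which kept 13028 of 18193. limma 3.58.1 (R 4.3.3) was fitted to all 9 arrays with genotype as the factor and eBayes with a trend. Tests were two-sided, p-values were adjusted over all genes (Benjamini-Hochberg), and genes under 0.05 are called. Every one of the 45037 probe sets was also fitted, for the 7 of the members. The spike-in sets were cut at the widest gap of the thr to dap ratio. In simulated data with 200 changed genes of 13028, the KO minus WT test recovered 72.0% of 2-fold and 40.6% of 1.5-fold changes. The simulated noise was independent between genes, with no array effect and no spike-in set. These shares therefore do not give the power of the real arrays, where KO and WT never share a spike-in set. Figures were drawn with matplotlib 3.10.9 (Python 3.11.15).

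The members, lists, tests and alternatives were chosen with earlier results of these data known. The genes named are the members, Esrrg, the called genes and up to 3 with the lowest p of each list, and the genes most correlated with each member. Akap9, Kcnq5, Kcnq3, Kcnq1ot1, Smim11, Clic6, Runx1, Cdkn1c, Tomm7, Klhl7 and Tnnt2 were named after their values were seen. Alternatives changed the scaling, pseudocount, filter, probe set rule, variance model, weights, blocks and arrays used.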

Additional observations from a re-analysis of the deposited data

How the results depend on the processing

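The Kcne1 difference between KO and WT was negative under all 22 alternatives, from -0.66 to -0.44, and passed the threshold under 14 of them (limma, adjusted p from 0.00369 to 0.608). It was not called after arrays were shifted to a common median (-0.54), with probe sets averaged per gene (-0.58), without the intensity trend (-0.58) or with the spike-in set as a block (-0.63), nor without 1 of 4 arrays, and with it the count of members called went to 0. The 211 genes called between KO and WT became 24 after the median shift, 85 without the filter, 7 with the mean of probe sets, 134 with every probe set, 6 without the trend, 612 with array quality weights, 1 with the spike-in block and 773 with only the 6 arrays compared. Leaving out 1 array gave 10 to 840 genes, 840 being without HET replicate 1, 223 and 203 without HET replicates 2 and 3, 79, 12 and 10 without WT replicates 1, 2 and 3, and 17, 13 and 19 without KO replicates 1, 2 and 3, and 0 to 1 members. A median shift over the tested genes alone, chosen after seeing the data, gave 236.

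The labels number the replicates alike in each genotype. Deviations of same-numbered arrays correlated at -0.04 to 0.05, which shows no pairing by number but cannot exclude a shared litter or day. The fit with the replicate number as a block called 127 genes between KO and WT, kept Kcne1 (-0.58, limma, adjusted p = 0.0336), and called 1 gene between HET and WT.

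Between HET and WT, limma called 0 genes (1499 at an unadjusted p under 0.05), 9 with quality weights, 2 with the spike-in block, and 0 to 574 without 1 array, 574 being without HET replicate 1, where 1 member, Kcnh2, was called (0 to 1 members). Between KO and HET the 2 genes called became 0 after the median shift, with the mean of probe sets, without the trend and with only the 6 arrays, and 0 to 3 without 1 array. Of the 7 member probe sets, 1 was called between KO and WT, 2 with a pseudocount of 1 or with quality weights, 0 with a pseudocount of 64, the median shift, no trend or the spike-in block, and 0 to 2 without 1 array.

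Small differences changed sign, and the cause was not tested. KO minus WT became 0.011 (median shift) and 0.13 (spike-in block) for Kcnq1 and 0.093 (spike-in block) for Kcnh2. HET minus WT became 0.061 for Kcnq1 with the spike-in block, and -0.059 (quantile normalization), -0.031 (median shift), -0.16 (quality weights) and -0.016 (median shift over tested genes) for Kcne4, whose difference from the midpoint became 0.040 with the block. Without 1 array, Kcne4 ran from -0.022 to 0.40 for KO minus WT, -0.27 to 0.22 for HET minus WT and -0.38 to 0.11 from the midpoint. Kcnq1 ran from -0.17 to 0.074 for KO minus WT, -0.18 to 0.066 for HET minus WT, -0.089 to 0.070 for KO minus HET and -0.098 to 0.078 from the midpoint. Kcnh2 ran from -0.10 to 0.13 for KO minus HET. The Kcne1 to Kcnq1 difference within arrays kept its sign (-0.68 to -0.44 for KO minus WT).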
